A study of Mus musculus with 9 samples.

Results

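The 38 genes described here are genes that leukocytes and macrophages use and that other cells of a testis culture mostly do not. They were picked by symbol from a table of read counts for 53801 genes in cultured mouse spermatogonial stem cells (SSCs), and they were graded on 2 measured values, their level in the libraries with 4OHT alone and their ratio between the 2 PRMT5 constructs. Both values are therefore given as descriptions, without a test. The symbol Itgam stands on 2 entries of the table, so the 38 genes have 39 entries, and all 39 passed the filter on low counts together with 22452 genes in all.

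All 9 libraries came from SSCs with floxed alleles of Prmt5 and the Rosa26-CreERT2 transgene, and all were given 4-hydroxytamoxifen (4OHT) at 1 µM, the drug that activates this Cre and with it the deletion of Prmt5. Of these, 3 libraries had 4OHT alone, 3 were labelled MU and 3 were labelled OE. The labels do not spell out these letters, and here MU was read as the catalytically dead construct PRMT5 (E444Q) and OE as PRMT5 (WT), both added by lentivirus. The Rosa26 locus is active in nearly every cell type, so this Cre is not limited to germ cells. Whether the 3 libraries of a group came from separate cultures is not stated in the sources used here, so every spread and p-value below measures the variation between these libraries, which may be technical. The ethanol-treated control was not analysed here. Total counts ran from 78751996 to 365719548 per library. In this report 1 read pair was taken as about 4 counts, which the sources used here do not state. The numbers of read pairs and the counting intervals below rest on this assumption. Prmt5 itself was measured at 31.9, 30.8 and 28.2 CPM (counts scaled to a common library size) with 4OHT alone, at 145, 147 and 146 CPM with PRMT5 (E444Q), and at 1070, 1070 and 1080 CPM with PRMT5 (WT). These values are per gene and do not separate reads of the deleted exons from other exons or from the constructs. The presence of germ cells was checked with Ddx4, an RNA helicase of germ cells. It had mean levels of 298, 551 and 590 CPM in the 3 groups in the same order. Dazl, an RNA-binding protein of germ cells, was at 381, 687 and 791 CPM. These 2 genes do not check the label of stem cells. Other germ cell genes went the other way, with Gfra1 at 120, 27.5 and 28.2 CPM and Etv5 at 126, 13.8 and 12.1 CPM. Of 12 germ cell genes, 7 rose and 4 fell with PRMT5 (WT) against 4OHT alone.

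Leukocytes are recognised by proteins that nearly all blood cells carry, such as the phosphatase CD45 (Ptprc) and the integrin chain Itgb2. Among them, macrophages depend on the ETS transcription factor PU.1 (Spi1) and on the growth factor receptor Csf1r, whose ligands are Csf1 and Il34. They sense microbes and dead cells through Fc receptors, lectins and scavenger receptors, and they destroy what they take up with lysozyme, pore-forming proteins and the phagocyte NADPH oxidase. In the testis, macrophages live in the interstitium and around the seminiferous tubules, next to the spermatogonia.

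PU.1 sites carry the core letters GAGGAA, and promoter sequences are shown here because most of the genes were high or low in the same libraries. RefSeq windows of 300 bases around the start (GRCm38.p6, 250 bases before to 50 after) were found for 26 of the 38 genes, which had 32 windows. GAGGAA was present on either strand in 56.2% of these windows (17 genes) and in 28.3% of all 32851 windows. The longer run GAGGAAGT, which contains it, was found in 9.38% of the windows of these genes (Cd53, Evi2b and Vav1) and in 3.2% of all. GGAANNGAA, the letters of a site shared by ETS factors and interferon regulatory factors, was in 9.38% against 8.24%, TTGCGCAA of C/EBP factors in 3.12% (Clec12a) against 0.183%, and TATAAA in 9.38% against 13.6%. These shares describe letters only, and no binding was measured. The stretches before the start of 4 genes follow, the first with the longer run, the next 2 with the core alone in the stretch shown (the longer run of Cd53 lies after its start), and the last, of the most abundant gene, with neither. Each lies outside the gene in GENCODE vM21, and capitals mark GAGGAA or GAGGAAGT on either strand.
Vav1, chr17:57278850-57279099, plus strand: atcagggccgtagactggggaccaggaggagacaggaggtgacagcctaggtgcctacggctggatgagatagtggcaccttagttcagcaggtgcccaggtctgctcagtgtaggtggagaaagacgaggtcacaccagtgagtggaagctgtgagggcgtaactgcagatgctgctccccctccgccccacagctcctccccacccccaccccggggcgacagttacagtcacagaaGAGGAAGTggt
Cd53, chr3:106790150-106790399, minus strand: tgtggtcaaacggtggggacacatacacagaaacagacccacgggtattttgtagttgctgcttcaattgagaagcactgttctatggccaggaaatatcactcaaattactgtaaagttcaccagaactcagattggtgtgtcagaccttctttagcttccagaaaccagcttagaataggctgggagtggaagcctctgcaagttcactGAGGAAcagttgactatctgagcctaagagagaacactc
Itgam, chr7:128062390-128062639, plus strand: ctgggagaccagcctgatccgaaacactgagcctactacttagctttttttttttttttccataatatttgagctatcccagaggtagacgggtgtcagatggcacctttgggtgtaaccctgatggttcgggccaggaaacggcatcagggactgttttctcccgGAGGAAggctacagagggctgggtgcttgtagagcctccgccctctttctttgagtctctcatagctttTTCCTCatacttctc
Lyz2, chr10:117282322-117282522, minus strand: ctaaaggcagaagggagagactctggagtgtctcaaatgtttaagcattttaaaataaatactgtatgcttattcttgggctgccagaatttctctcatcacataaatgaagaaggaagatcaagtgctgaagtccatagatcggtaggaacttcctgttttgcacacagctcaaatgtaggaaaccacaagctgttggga
In Vav1 the run begins 11 bases before the start, in Cd53 the core begins 39 bases before it, and in Itgam the core lies 84 bases before it and again, on the other strand, 15 bases before it.

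Summed over all 39 entries, the genes held 254 to 267 CPM in the libraries with 4OHT alone, 1480 to 1510 CPM with PRMT5 (E444Q) and 2880 to 3000 CPM with PRMT5 (WT). The 3 ranges do not overlap, and PRMT5 (E444Q) lay between the others. Lyz2 made up most of each sum, and without it the ranges were 103 to 115, 550 to 555 and 1040 to 1060 CPM. These are bulk libraries, in which more cells of a type and more RNA per cell cannot be told apart.

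Between PRMT5 (WT) and 4OHT alone, 34 of the 39 entries were past the adjusted threshold of 0.05 of edgeR's quasi-likelihood test as higher, beside 29.9% of all genes tested, and 0 as lower, beside 27.9%. The 3 PRMT5 (WT) libraries were all above the 3 libraries with 4OHT alone for the same number, 34 entries (31.5% of all genes), and all below for 1 entry, Aif1 (30.1%). Between PRMT5 (E444Q) and 4OHT alone, 34 entries were past the threshold as higher (29.5% of all genes) and 1, again Aif1, as lower (26.5%), and the libraries did not overlap for 34 higher entries (33.8%) and for 1 lower entry (30.1%). Between PRMT5 (E444Q) and PRMT5 (WT), 25 entries were past the threshold as lower with PRMT5 (E444Q) (1.06% of all genes) and 1, Msr1, as higher (2.12%). In that comparison the libraries did not overlap for 29 lower entries (12.8%) and for 1 higher entry (13.0%). The median log2 fold change over the 39 entries was 3.64 for PRMT5 (WT) against 4OHT alone, where all genes tested had 0.02, it was 2.75 for PRMT5 (E444Q) against 4OHT alone (0.04 over all genes), and it was -0.95 for PRMT5 (E444Q) against PRMT5 (WT) (0.01 over all genes). Because the genes were chosen and graded on these same libraries, nothing is read from these counts, and the first 2 comparisons share the libraries with 4OHT alone.

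**Figure D1:**
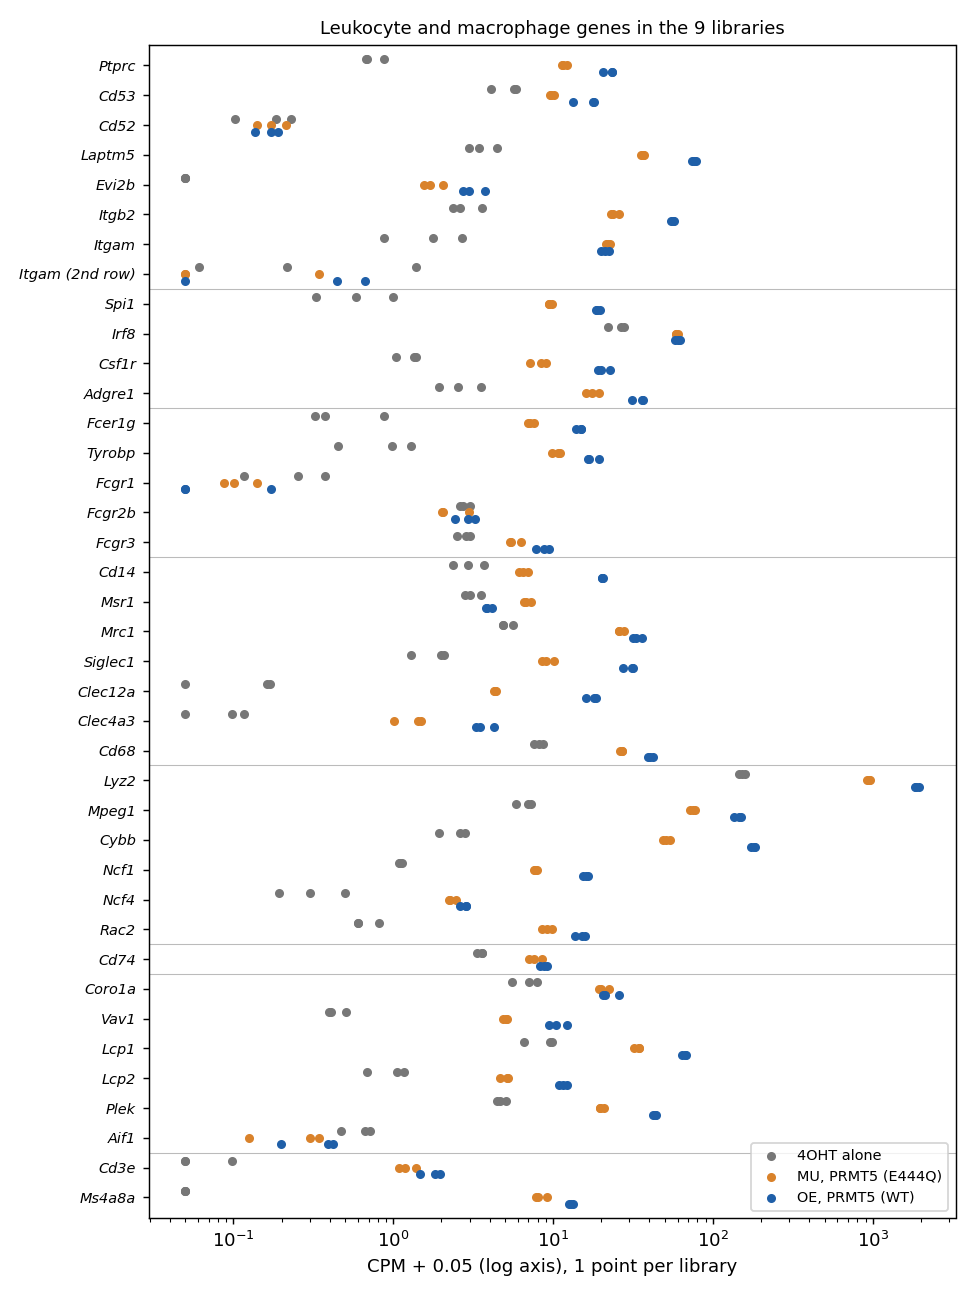
Level of each of the 39 entries (CPM + 0.05, log axis) in each of the 9 libraries, 1 point per library, with grey for 4OHT alone, orange for PRMT5 (E444Q) and blue for PRMT5 (WT), and lines between the groups of genes. For 34 entries both constructs sit to the right of 4OHT alone, and for most of these blue sits to the right of orange, with Msr1 in the opposite order.

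Of the 8 entries for leukocyte surface proteins, 6 were above 4OHT alone with both constructs, in libraries that did not overlap, and 5 were lower in the PRMT5 (E444Q) libraries than in those with PRMT5 (WT). Over all genes tested, 31.5% with PRMT5 (WT) and 33.8% with PRMT5 (E444Q) lay above 4OHT alone without overlap. Between the constructs, 12.8% were lower with PRMT5 (E444Q) without overlap. These shares stand beside the counts of each group of genes, here and below. Ptprc, which encodes CD45, the receptor phosphatase of all nucleated blood cells, was at 0.830, 0.622 and 0.636 CPM with 4OHT alone, at 12.1, 11.4 and 11.3 CPM with PRMT5 (E444Q), and at 23.3, 20.5 and 23.4 CPM with PRMT5 (WT). The 3 groups were separate, and the fold of PRMT5 (WT) over 4OHT alone was 32.2 (log2 fold change 5.01 ± 0.13, SE). Laptm5, a lysosomal membrane protein of blood cells, went from 4.39, 2.92 and 3.37 CPM with 4OHT alone to 35.5, 36.8 and 36.4 CPM with PRMT5 (E444Q) and 77.7, 76.4 and 73.5 CPM with PRMT5 (WT). Cd53, a tetraspanin of leukocytes, had 5.63, 4.02 and 5.78 CPM, then 9.61, 10.1 and 9.47 CPM, then 13.2, 18.0 and 17.8 CPM in the same order of groups. Its groups were also separate, but the fold of PRMT5 (WT) over 4OHT alone was only 3.17, from a start that was already above 4 CPM in every library.

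Itgb2 and Itgam encode the 2 chains of the integrin Mac-1, by which myeloid cells adhere and bind complement-coated particles, and their patterns differed. Itgb2 was at 2.57, 2.31 and 3.54 CPM with 4OHT alone, 23.6, 22.9 and 25.7 CPM with PRMT5 (E444Q), and 56.8, 56.0 and 54.7 CPM with PRMT5 (WT). Itgam was at 0.830, 2.64 and 1.72 CPM with 4OHT alone, 22.1, 21.4 and 22.6 CPM with PRMT5 (E444Q), and 22.4, 21.1 and 19.8 CPM with PRMT5 (WT). The beta chain was thus graded between the constructs (log2 fold change between the constructs -1.21), whereas the alpha chain overlapped between them (0.07 ± 0.20, SE). The second entry named Itgam, annotated as Gm49368 in GENCODE, shares 3450 exon bases with the first, which is 68.7% of the exon bases of Itgam, so the counting could split reads between them. With both entries summed the levels were 2.16, 2.81 and 1.73 CPM with 4OHT alone, 22.1, 21.7 and 22.6 CPM with PRMT5 (E444Q) and 22.4, 21.5 and 20.4 CPM with PRMT5 (WT), so the constructs still overlapped.

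The last 2 surface genes were near the limit of counting in at least 1 group. Evi2b, a membrane protein of blood cells, had 0 counts in all 3 libraries with 4OHT alone, 1.51, 1.64 and 2.00 CPM with PRMT5 (E444Q) and 2.94, 3.68 and 2.68 CPM with PRMT5 (WT). Against a floor of 12 counts per library (3 read pairs, on average 0.145 CPM with 4OHT alone), PRMT5 (WT) was at least 21.4-fold higher and PRMT5 (E444Q) at least 11.8-fold higher. This floor covers counting error only, and both bounds hold only for reads as they were assigned to Evi2b. They do not cover reads that could belong to either Evi2b or the overlapping gene Evi2. Evi2b lies within Nf1 and shares 98.5% of its exon bases with Evi2 on the same strand, which itself was at 0.308, 0.524 and 0.590 CPM in the 3 groups. Cd52, a small glycoprotein of lymphocytes and macrophages, stayed between 0.0527 and 0.179 CPM in all 9 libraries, and at that level a difference was not detectable.

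The 4 genes of lineage control were all above 4OHT alone with both constructs, and 3 of them were lower in the PRMT5 (E444Q) libraries than in those with PRMT5 (WT). Spi1, which encodes PU.1, was at 0.949, 0.538 and 0.279 CPM with 4OHT alone, 9.42, 9.44 and 9.76 CPM with PRMT5 (E444Q), and 18.8, 18.5 and 19.5 CPM with PRMT5 (WT), a fold of 32.1 between the last and the first. Csf1r, the receptor that macrophages need to survive, had 0.989, 1.29 and 1.33 CPM, then 8.96, 8.34 and 7.09 CPM, then 18.9, 22.6 and 19.8 CPM. Opposite to Csf1r lies Hmgxb3, which overlaps 15.1% of its exon bases, and whether the counting used strand is not stated in the sources used here. Adgre1, which encodes the macrophage antigen F4/80, had 3.48, 1.88 and 2.49 CPM with 4OHT alone, 19.2, 17.5 and 16.1 CPM with PRMT5 (E444Q) and 30.9, 36.3 and 35.7 CPM with PRMT5 (WT). Irf8, an interferon regulatory factor of monocytes and dendritic cells, departed from this order. It was at 22.0, 26.6 and 27.7 CPM with 4OHT alone, 58.9, 58.3 and 60.3 CPM with PRMT5 (E444Q), and 60.0, 57.8 and 62.2 CPM with PRMT5 (WT), so that it started highest of the 4, had a fold of only 2.36, and did not separate the constructs (log2 fold change -0.02 ± 0.07, SE).

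Fc receptors bind the constant part of antibodies, and several of them signal through adaptors with an ITAM, a tyrosine motif that recruits the kinase Syk. Fcer1g, the common gamma chain of these receptors, had 0.830, 0.275 and 0.324 CPM with 4OHT alone, 6.91, 7.59 and 7.07 CPM with PRMT5 (E444Q) and 14.9, 14.8 and 13.9 CPM with PRMT5 (WT). Tyrobp, the adaptor DAP12, had 1.24, 0.932 and 0.402 CPM, then 9.76, 11.0 and 10.7 CPM, then 16.8, 19.4 and 16.5 CPM. Both adaptors were low with 4OHT alone and their 3 groups were separate, with folds of 30.5 and 20.5 for PRMT5 (WT) over 4OHT alone. The receptors themselves had smaller folds or overlapped. Fcgr3, a low-affinity activating receptor, had 2.46, 2.81 and 2.98 CPM, then 6.27, 5.40 and 5.35 CPM, then 7.78, 9.37 and 8.72 CPM, a fold of 3.14. Fcgr2b, the inhibitory receptor, had 2.98, 2.57 and 2.69 CPM with 4OHT alone, 2.91, 1.99 and 1.97 CPM with PRMT5 (E444Q), and 2.90, 3.21 and 2.37 CPM with PRMT5 (WT), and all 3 groups overlapped. Fcgr1, the high-affinity receptor that is used as a macrophage marker, was at 0.0659, 0.203 and 0.324 CPM with 4OHT alone and at or below 0.123 CPM in all 6 libraries with a construct.

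All 7 pattern recognition, scavenger and lectin receptors were above 4OHT alone with both constructs, but in this group the constructs differed most in their order. Siglec1, a sialic acid receptor of macrophages, had 1.95, 1.24 and 2.02 CPM with 4OHT alone, 8.48, 8.98 and 10.1 CPM with PRMT5 (E444Q) and 27.2, 31.7 and 31.0 CPM with PRMT5 (WT). Cd14, the co-receptor for lipopolysaccharide, had 2.32, 2.87 and 3.63 CPM, then 6.03, 6.96 and 6.47 CPM, then 20.3, 20.1 and 20.4 CPM. For these 2 genes the PRMT5 (E444Q) level was 0.307 and 0.320 of that with PRMT5 (WT). Mrc1, the mannose receptor, had 5.52, 4.79 and 4.84 CPM with 4OHT alone, 27.6, 25.7 and 25.8 CPM with PRMT5 (E444Q) and 31.5, 35.7 and 32.8 CPM with PRMT5 (WT), and its ratio between the constructs was 0.790. Cd68, a lysosomal glycoprotein of macrophages, had 8.59, 7.59 and 8.05 CPM, then 27.0, 26.2 and 27.1 CPM, then 41.8, 39.1 and 40.2 CPM.

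Msr1, the class A scavenger receptor, was the 1 gene of the 38 with the opposite order. It had 2.77, 3.50 and 2.97 CPM with 4OHT alone, 6.67, 6.53 and 7.26 CPM with PRMT5 (E444Q), and 4.07, 3.78 and 3.75 CPM with PRMT5 (WT). The groups were separate, with PRMT5 (E444Q) 1.76-fold above PRMT5 (WT) and PRMT5 (WT) only 1.26-fold above 4OHT alone.

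The 2 C-type lectins of the group were almost without reads with 4OHT alone. Clec12a, an inhibitory receptor of myeloid cells, was at 0, 0.120 and 0.112 CPM with 4OHT alone, which was 5 read pairs in all, at 4.21, 4.30 and 4.31 CPM with PRMT5 (E444Q) and at 15.9, 18.4 and 17.9 CPM with PRMT5 (WT). The ratio to 4OHT alone was 219 for PRMT5 (WT) (95% exact counting interval 93.5 to 674) and 53.4 for PRMT5 (E444Q) (22.8 to 165). Clec4a3, a related lectin, was at 0, 0.0478 and 0.0669 CPM (2 read pairs), then at 1.43, 0.967 and 1.38 CPM, then at 3.25, 4.22 and 3.46 CPM, with ratios of 113 (31.0 to 936) and 37.4 (10.2 to 310). These intervals cover counting error only, and the separation of the constructs rests on the levels, which did not overlap for either lectin.

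The 6 genes of killing and the oxidase were all above 4OHT alone with both constructs and all lower in the PRMT5 (E444Q) libraries than in those with PRMT5 (WT). Lyz2, the lysozyme of macrophages and neutrophils, was the most abundant of the 38 genes, with 158, 151 and 145 CPM with 4OHT alone, 953, 954 and 925 CPM with PRMT5 (E444Q) and 1860, 1940 and 1830 CPM with PRMT5 (WT). Its fold was 12.4 (log2 fold change 3.63 ± 0.05, SE), and it was abundant already without a construct. The near-identical gene Lyz1 had means of 0.0335, 0.215 and 2.48 CPM in the 3 groups, so reads assigned to it were few beside those of Lyz2. Mpeg1, the pore-forming protein perforin-2, had 7.22, 5.83 and 6.94 CPM with 4OHT alone, 71.4, 76.6 and 74.8 CPM with PRMT5 (E444Q) and 146, 150 and 136 CPM with PRMT5 (WT).

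The phagocyte NADPH oxidase makes superoxide with a membrane-bound core, which includes the catalytic chain Cybb, and with cytosolic subunits and the GTPase Rac2 that join it on activation. Cybb had 2.56, 1.89 and 2.76 CPM with 4OHT alone, 48.9, 50.8 and 53.5 CPM with PRMT5 (E444Q) and 182, 173 and 181 CPM with PRMT5 (WT). Its fold over 4OHT alone was 74.4 with PRMT5 (WT), and its level with PRMT5 (E444Q) was 0.286 of that with PRMT5 (WT) (log2 fold change -1.81 ± 0.08, SE). Ncf1, a cytosolic subunit, had 1.08, 1.03 and 1.05 CPM, then 7.62, 7.49 and 7.88 CPM, then 16.5, 15.3 and 15.9 CPM, and Gtf2ird2 on the other strand overlaps 11.1% of its exon bases. Rac2 had 0.554, 0.550 and 0.759 CPM, then 9.84, 8.44 and 9.16 CPM, then 15.7, 15.2 and 13.7 CPM. Ncf4, another cytosolic subunit, had 0.250, 0.143 and 0.446 CPM with 4OHT alone, 2.43, 2.21 and 2.19 CPM with PRMT5 (E444Q) and 2.57, 2.79 and 2.81 CPM with PRMT5 (WT), so that the constructs were separate by a narrow gap only (-0.26 ± 0.25, SE). Other oxidase genes outside the 38 were tested with edgeR over all genes, with Benjamini-Hochberg adjustment. Cyba, the partner chain of Cybb, which many cell types express, was at 53.6, 48.7 and 53.4 CPM in the 3 groups (adjusted p = 0.969 for PRMT5 (WT) against 4OHT alone). Without replicate 3 of 4OHT alone, Cyba passed the threshold with a log2 fold change of -0.15. The proton channel Hvcn1 rose by a log2 fold change of 0.29 (adjusted p = 0.00352).

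Cd74, the invariant chain of MHC class II, stood for antigen presentation, with 3.53, 3.56 and 3.29 CPM with 4OHT alone, 8.41, 7.56 and 7.02 CPM with PRMT5 (E444Q) and 8.21, 9.11 and 8.70 CPM with PRMT5 (WT). It was above 4OHT alone with both constructs, by a fold of 2.51 for PRMT5 (WT), and the constructs overlapped. Of 7 other MHC class II genes, 3 rose with PRMT5 (WT) against 4OHT alone (29.9% of all genes tested) and 2 fell (27.9%). H2-Aa, the alpha chain of I-A, had 0.0239 CPM with 4OHT alone, 1.84 CPM with PRMT5 (E444Q) and 1.59 CPM with PRMT5 (WT), and its partner H2-Ab1 had 1.71, 1.10 and 1.17 CPM.

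Of the 6 genes of signalling and the cytoskeleton, 5 were above 4OHT alone with both constructs. Vav1, a guanine nucleotide exchange factor of blood cells, had 0.356, 0.347 and 0.457 CPM with 4OHT alone, 4.99, 4.84 and 5.10 CPM with PRMT5 (E444Q) and 9.43, 12.1 and 10.3 CPM with PRMT5 (WT). Lcp2, the adaptor SLP-76, had 1.12, 0.633 and 1.00 CPM, then 5.13, 5.18 and 4.61 CPM, then 12.1, 11.5 and 10.8 CPM. Plek, the protein kinase C substrate pleckstrin, had 4.60, 4.42 and 5.01 CPM, then 19.5, 20.9 and 19.5 CPM, then 43.2, 41.8 and 43.8 CPM. In all 3 genes the groups were separate, and the PRMT5 (E444Q) level was 0.435 to 0.469 of that with PRMT5 (WT). Lcp1, the actin-bundling protein L-plastin, had 9.56, 6.51 and 9.74 CPM, then 34.5, 34.4 and 31.8 CPM, then 66.8, 67.5 and 63.9 CPM. Coro1a, an actin regulator of leukocytes, had 5.50, 6.98 and 7.91 CPM with 4OHT alone, 19.9, 22.3 and 19.2 CPM with PRMT5 (E444Q) and 25.8, 20.6 and 21.0 CPM with PRMT5 (WT), and the constructs overlapped.

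Aif1, which encodes the calcium-binding protein IBA1 that is widely used to stain macrophages and microglia, did not follow the others. It was at 0.619, 0.669 and 0.424 CPM with 4OHT alone, 0.253, 0.291 and 0.0757 CPM with PRMT5 (E444Q) and 0.369, 0.342 and 0.147 CPM with PRMT5 (WT). Both constructs lay below 4OHT alone without overlap, the constructs overlapped each other, and the log2 fold change was -1.01 ± 0.56 (SE) for PRMT5 (WT) against 4OHT alone.

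The last 2 genes were placed in none of the groups above. Cd3e, a chain of the T cell receptor complex, had 0, 0.0478 and 0 CPM with 4OHT alone (1 read pair), 1.04, 1.13 and 1.33 CPM with PRMT5 (E444Q) and 1.78, 1.42 and 1.91 CPM with PRMT5 (WT). The ratio to 4OHT alone was 108 for PRMT5 (WT) (95% exact counting interval 19.1 to 4310) and 72.9 for PRMT5 (E444Q) (13.0 to 2890). Ms4a8a, a membrane-spanning protein of the MS4A family, had 0 counts in all libraries with 4OHT alone, 7.75, 9.07 and 7.96 CPM with PRMT5 (E444Q) and 13.2, 12.6 and 12.9 CPM with PRMT5 (WT). Against the floor of 12 counts per library, PRMT5 (WT) was at least 88.9-fold higher and PRMT5 (E444Q) at least 57.0-fold higher.

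The genes were also grouped by their mean level with 4OHT alone. With less than 1 CPM there, 17 entries included 13 that were above 4OHT alone with PRMT5 (WT), and the median fold over the 15 of them with counts with 4OHT alone was 24.0. It was also 24.0 over all 17 with Evi2b and Ms4a8a at their lower bounds. From 1 to 5 CPM there were 14 entries, of which 13 were above, with a median fold of 12.6. At 5 CPM or more there were 8 entries (Cd53, Irf8, Mrc1, Cd68, Lyz2, Mpeg1, Coro1a and Lcp1), all 8 above, with a median fold of 5.79 and a range from 2.36 (Irf8) to 21.6 (Mpeg1). The median fold was thus smaller where the level it is divided by was higher. The median coefficient of variation between the libraries of a group, over entries of at least 1 CPM in that group, was 13.9% with 4OHT alone (22 entries), 5.65% with PRMT5 (E444Q) (35 entries) and 5.83% with PRMT5 (WT) (35 entries), so the levels with 4OHT alone carry the larger error.

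To compare the constructs without this start, the mean of 4OHT alone was subtracted from both, and the rest with PRMT5 (E444Q) was divided by the rest with PRMT5 (WT). This was done for the 33 entries whose mean with PRMT5 (WT) was at least 2 times that with 4OHT alone and at least 1 CPM. Entries were thus kept by their level with PRMT5 (WT). This left out Cd52, the second Itgam entry, Fcgr1, Fcgr2b, Aif1 and Msr1, the gene with the opposite order of the constructs. The median of the 33 ratios was 0.478, and 17 of them lay from 0.4 to 0.6. Ptprc was at 0.503 ± 0.0247 (SE), Lyz2 at 0.459 ± 0.00986, Mpeg1 at 0.492, Spi1 at 0.489 and Fcer1g at 0.478. These genes near the median had similar ratios at very different levels, while all 33 ran from 0.205 to 1.05. At the low end, 8 entries were under 0.4, the lowest being Cd14 at 0.205 ± 0.0233 (SE), Clec12a at 0.242, Siglec1 at 0.264 and Cybb at 0.276 ± 0.00903 (SE). At the high end, 6 lay from 0.6 to 0.9, and Irf8 (0.976 ± 0.0395, SE) and Itgam (1.05 ± 0.0443, SE) lay above. Among the 3 classes by level with 4OHT alone, from low to high, the median ratio was 0.503, 0.423 and 0.535. The genes were graded on the ratio of the constructs, so this spread is a description of the list.

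**Figure D2:**
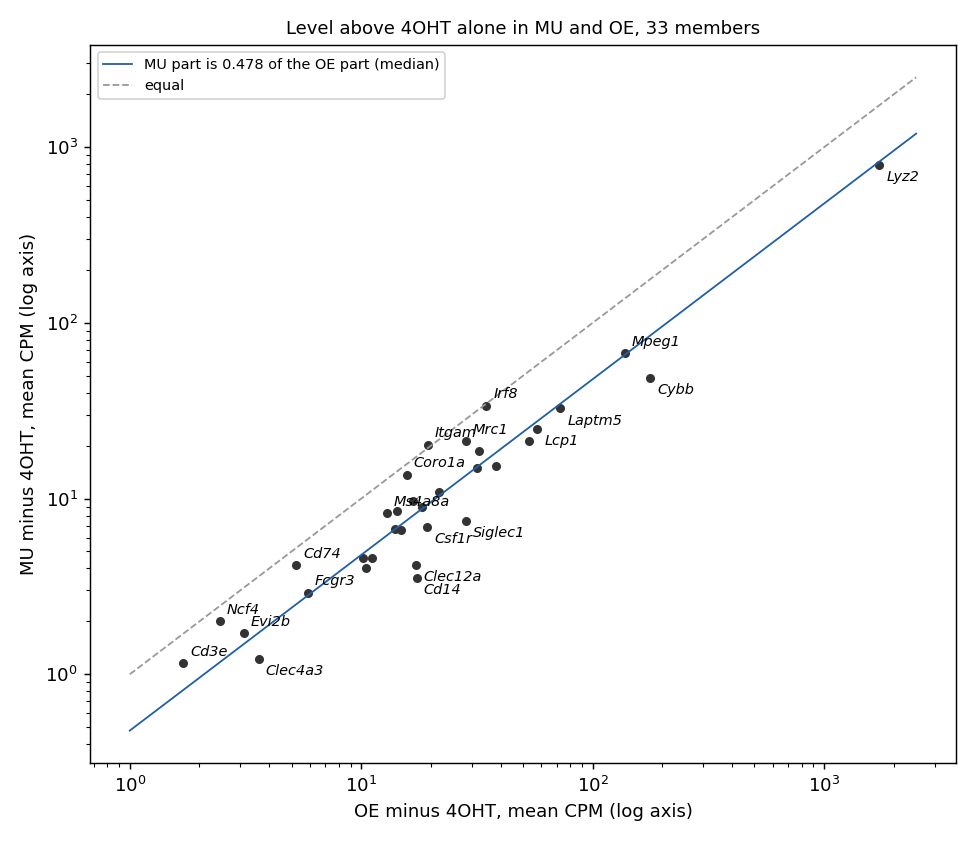
Mean CPM with PRMT5 (E444Q) minus mean CPM with 4OHT alone (y axis) against the same difference for PRMT5 (WT) (x axis), both on log axes, with 1 point for each of 33 entries. The solid line marks the median ratio of 0.478 and the dashed line equal values, and Irf8 and Itgam lie at the dashed line while Cybb, Siglec1, Clec12a and Cd14 lie below the solid one.

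**Figure D3:**
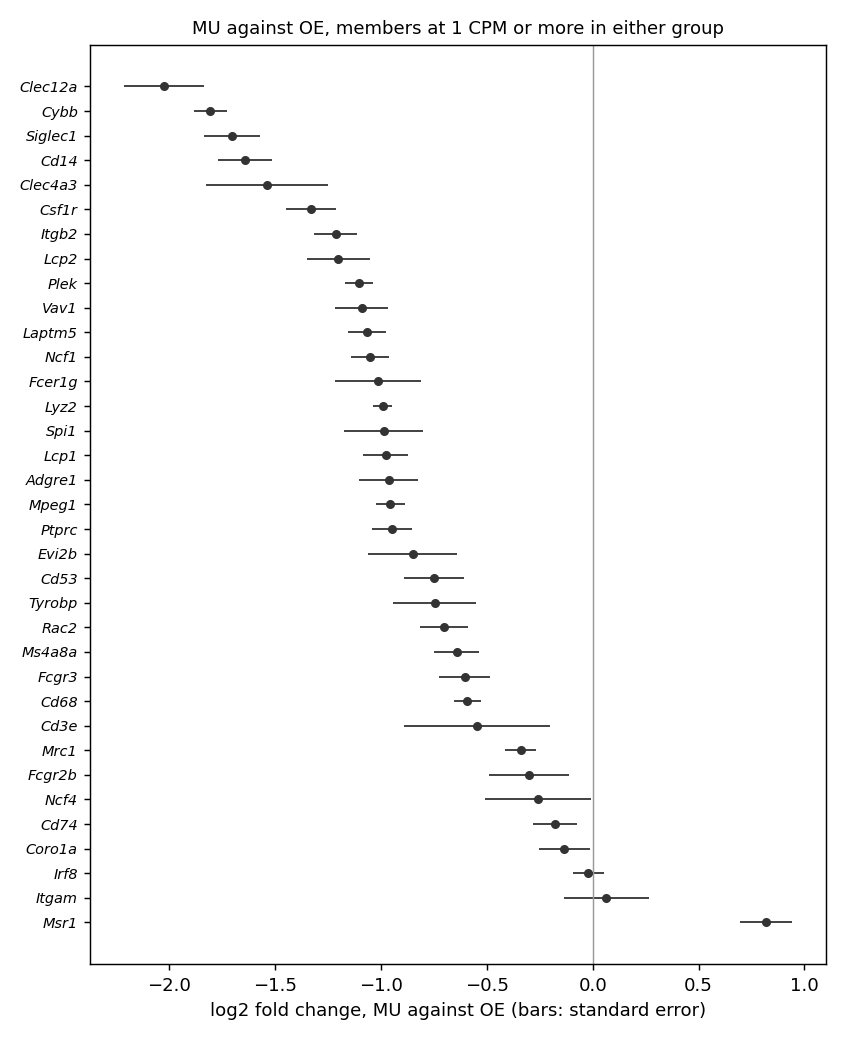
Log2 fold change from PRMT5 (WT) to PRMT5 (E444Q) with its standard error (bars) for the entries of at least 1 CPM in either group, in order. The values run from -2.03 for Clec12a to 0.82 for Msr1, the 1 gene clearly to the right of 0.

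Levels of different genes can be compared only per length, for which mean CPM was divided by the length of all exons in kilobases. With PRMT5 (WT), Lyz2 led on this scale with 1430 CPM per kb, followed by Mpeg1 (33.2), Cd68 (32.1), Cybb (30.8), Tyrobp (26.4), Laptm5 (20.0), Itgb2 (18.3) and Fcer1g (16.6). With 4OHT alone, Lyz2 again led with 115 CPM per kb, followed by Cd68 (6.43), Irf8 (3.60), Cd53 (2.95), Coro1a (2.44) and Cd74 (2.06). Of these, Irf8, Coro1a and Cd74 were among the genes whose constructs overlapped. Cybb was at 0.413 CPM per kb with 4OHT alone, and at 30.8 with PRMT5 (WT).

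Other genes of the same pathways, which are not among the 38, were tested in the same edgeR fit with Benjamini-Hochberg adjustment over all 22452 genes. All lists outside the 38 were also chosen with earlier results of these data known, so their counts and p-values are descriptions. Over all genes tested, 29.9% rose and 27.9% fell with PRMT5 (WT) against 4OHT alone. Between the constructs, 1.06% were lower and 2.12% higher with PRMT5 (E444Q). These shares stand beside the count of every list, here and below. Of 28 further genes of ITAM and Fc receptor signalling, 26 rose with PRMT5 (WT) against 4OHT alone and 0 fell, with a median log2 fold change of 3.09 where all genes had 0.02, and 15 were lower in the PRMT5 (E444Q) libraries than in those with PRMT5 (WT). Clec4e, the lectin Mincle, had means of 0.232, 7.52 and 17.4 CPM in the 3 groups, in the order used above (log2 fold change 6.28 for PRMT5 (WT) against 4OHT alone, adjusted p = 2.62e-09), and Trem1, an activating receptor of myeloid cells, had 0.127, 3.62 and 5.84 CPM (5.50, adjusted p = 2.88e-09). Of 15 further leukocyte genes tested, 11 rose and 1 fell with PRMT5 (WT) (median log2 fold change 2.34), and 8 were lower and 1 higher in the PRMT5 (E444Q) libraries than in those with PRMT5 (WT). Hcls1, a cortactin-like protein of blood cells, had 1.03, 8.74 and 20.3 CPM (log2 fold change 4.29, adjusted p = 8.71e-12, and -1.22, adjusted p = 2.69e-05, between the constructs). The gene that fell was Itga4, an integrin chain found on many cell types besides leukocytes, with 27.6, 5.72 and 3.70 CPM (log2 fold change -2.89, adjusted p = 4.29e-11).

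The ligands of Csf1r were lower where their receptor was higher, and all 3 colony-stimulating factor genes tested fell with PRMT5 (WT) against 4OHT alone. Csf1 fell from a mean of 646 CPM with 4OHT alone to 120 CPM with PRMT5 (E444Q) and 86.2 CPM with PRMT5 (WT) (log2 fold change -2.91 for PRMT5 (WT), adjusted p = 4.98e-13), and it was higher in the PRMT5 (E444Q) libraries than in those with PRMT5 (WT) (0.48, adjusted p = 0.000468). Il34 fell as well, from 2.66 to 0.895 and 0.580 CPM (log2 fold change -2.21, adjusted p = 6.68e-06). Of the 4 receptor chains for GM-CSF and G-CSF, 3 rose with PRMT5 (WT), Csf2rb from 2.94 to 12.2 and 22.4 CPM (2.92, adjusted p = 9.06e-11) and Csf2ra from 4.92 to 7.53 and 11.2 CPM (1.19, adjusted p = 1.06e-05), with Csf2rb2 from 1.66 to 2.67 and 6.32 CPM (1.92, adjusted p = 8.16e-07), and Csf3r stayed below 0.5 CPM in every library. Csf2rb was lower in the PRMT5 (E444Q) libraries than in those with PRMT5 (WT) (-0.87, adjusted p = 0.000267). Csf2, which encodes GM-CSF, was below 0.4 CPM in every library and was not tested, and Csf3, which encodes G-CSF, had means of 0.616, 0.210 and 0.0320 CPM (log2 fold change -4.08, adjusted p = 0.000214).

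Of 16 myeloid transcription factors outside the 38 genes, 6 rose (29.9% of all genes tested) and 8 fell (27.9%) with PRMT5 (WT) against 4OHT alone. Tfec, a MiT family factor of macrophages, had 0.477, 4.99 and 8.90 CPM (log2 fold change 4.22, adjusted p = 1.12e-10). Of 16 lysosomal genes, which all cells use, 1 rose and 13 fell, among them Ctsl, a cathepsin, with 1920, 522 and 448 CPM (-2.10, adjusted p = 3.71e-13). Of 13 genes of Toll-like receptors and their adaptors, 4 rose (29.9% of all genes tested) and 3 fell (27.9%). Those that rose included the endosomal receptors Tlr7, Tlr8 and Tlr13, and Tlr8 was also lower in the PRMT5 (E444Q) libraries than in those with PRMT5 (WT) (-1.29, adjusted p = 0.00163), whereas Ly96, the partner of Tlr4, fell from 3.09 to 0.776 and 0.809 CPM (-1.93, adjusted p = 0.000215).

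Markers of particular macrophages did not all go the same way. Of 13 genes of alveolar-type macrophages, which are known from the lung, 12 rose with PRMT5 (WT) and 0 fell, with a median log2 fold change of 2.46, and 6 were lower in the PRMT5 (E444Q) libraries than in those with PRMT5 (WT). Their summed level was 40.1 to 47.5 CPM with 4OHT alone, 1060 to 1100 CPM with PRMT5 (E444Q) and 1890 to 2280 CPM with PRMT5 (WT). Most of that with either construct, but not with 4OHT alone, was Chil3, a chitinase-like protein, at 8.03, 952 and 1910 CPM (log2 fold change 7.89, adjusted p = 9.06e-15), and Car4, a carbonic anhydrase, had 0.227, 14.4 and 80.7 CPM. Ear2, also of this list, had 0.416, 34.5 and 52.7 CPM (log2 fold change 7.00, adjusted p = 1.03e-12). Some other genes of the list were low or moved much less. Siglecf had 0.197, 0.396 and 0.546 CPM, Marco 1.25, 2.25 and 2.80 CPM, and Fabp4 15.9, 26.9 and 29.1 CPM. A further list held 11 macrophage and monocyte markers, with Timd4 and Ccr2 at or under the floor in all libraries. Of its 5 tested genes, 0 rose and 3 fell. Among those that fell were Tmem119 with 20.1, 7.49 and 5.52 CPM and Lyve1 with 2.74, 1.06 and 0.869 CPM. Whether macrophages were the source of these reads was not tested. Of complement genes and Apoe, which macrophages of many tissues make, 0 of 5 rose and 4 fell with PRMT5 (WT) against 4OHT alone, with C1qa at 2.21, 0.395 and 0.479 CPM, C1qb at 1.89, 0.396 and 0.467 CPM, C1qc at 2.26, 0.357 and 0.295 CPM and Apoe at 51.7, 11.1 and 9.83 CPM. C3, the central complement protein, was at 99.3, 125 and 108 CPM. It rose with PRMT5 (E444Q) against 4OHT alone (log2 fold change 0.34, adjusted p = 0.000439), and for PRMT5 (WT) against 4OHT alone the adjusted p was 0.115 (0.12), with C3 past the threshold as higher without replicate 3 of 4OHT alone (0.20).

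The other cell types that the culture could hold were checked by lists of their markers. For T cells, which Cd3e would mark, 0 of 7 genes tested rose and 5 fell with PRMT5 (WT), and the summed level of the 12 listed was 17.1 to 20.9 CPM with 4OHT alone, 11.1 to 12 CPM with PRMT5 (E444Q) and 9.11 to 10.7 CPM with PRMT5 (WT). Most of that was Lck, a kinase of T cells, at 13.0, 7.61 and 6.47 CPM. Of 4 B cell genes tested, 2 rose with PRMT5 (WT), and Cd79b, Cd22 and Blk were at or under the floor in all libraries. The summed level of these 8 B cell genes was 2.2 to 2.37 CPM with 4OHT alone, 3.84 to 4.85 CPM with PRMT5 (E444Q) and 4.31 to 4.69 CPM with PRMT5 (WT). For neutrophils, 3 of 10 genes were tested, of which 1 rose and 1 fell, and S100a9, Ly6g, Retnlg and Ltf were at or under the floor in all libraries. For natural killer cells 2 of 8 genes were tested and 0 passed the threshold, with Ncr1, Klrk1 and Nkg7 at or under the floor. For mast cells 2 of 7 were tested, 1 rose and 1 fell, and Cpa3, Mcpt4, Tpsb2 and Ms4a2 were at or under the floor. Of 5 dendritic cell genes tested 2 rose, including Zbtb46 from 8.86 to 31.9 and 34.2 CPM (log2 fold change 1.95, adjusted p = 1.09e-11), and of red cell genes only 1 of 6 was tested and it did not pass.

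Fibroblast and germ cell genes also moved with the groups. Of 10 fibroblast genes, 9 fell and 1 rose with PRMT5 (WT) against 4OHT alone, 9 were higher in the PRMT5 (E444Q) libraries than in those with PRMT5 (WT), and their summed level was 4550 to 5260 CPM with 4OHT alone, 3250 to 3280 CPM with PRMT5 (E444Q) and 2500 to 2570 CPM with PRMT5 (WT). The order of the groups was the reverse of that of the leukocyte genes. Mouse embryonic fibroblasts served as feeder cells in cultures of the study, and whether they were present in these libraries is not stated in the sources used here. Of 12 germ cell genes, 7 rose and 4 fell, with a summed level of 2610 to 2690, 3460 to 3560 and 3710 to 3760 CPM. Endothelial genes (2 of 6 rose, 1 fell), Sertoli cell genes (3 of 6 rose, 2 fell) and Leydig cell genes (1 of 2 tested rose) had calls in both directions or few genes tested. The part of any of these cell types in the levels of the 38 genes was not tested.

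**Figure D4:**
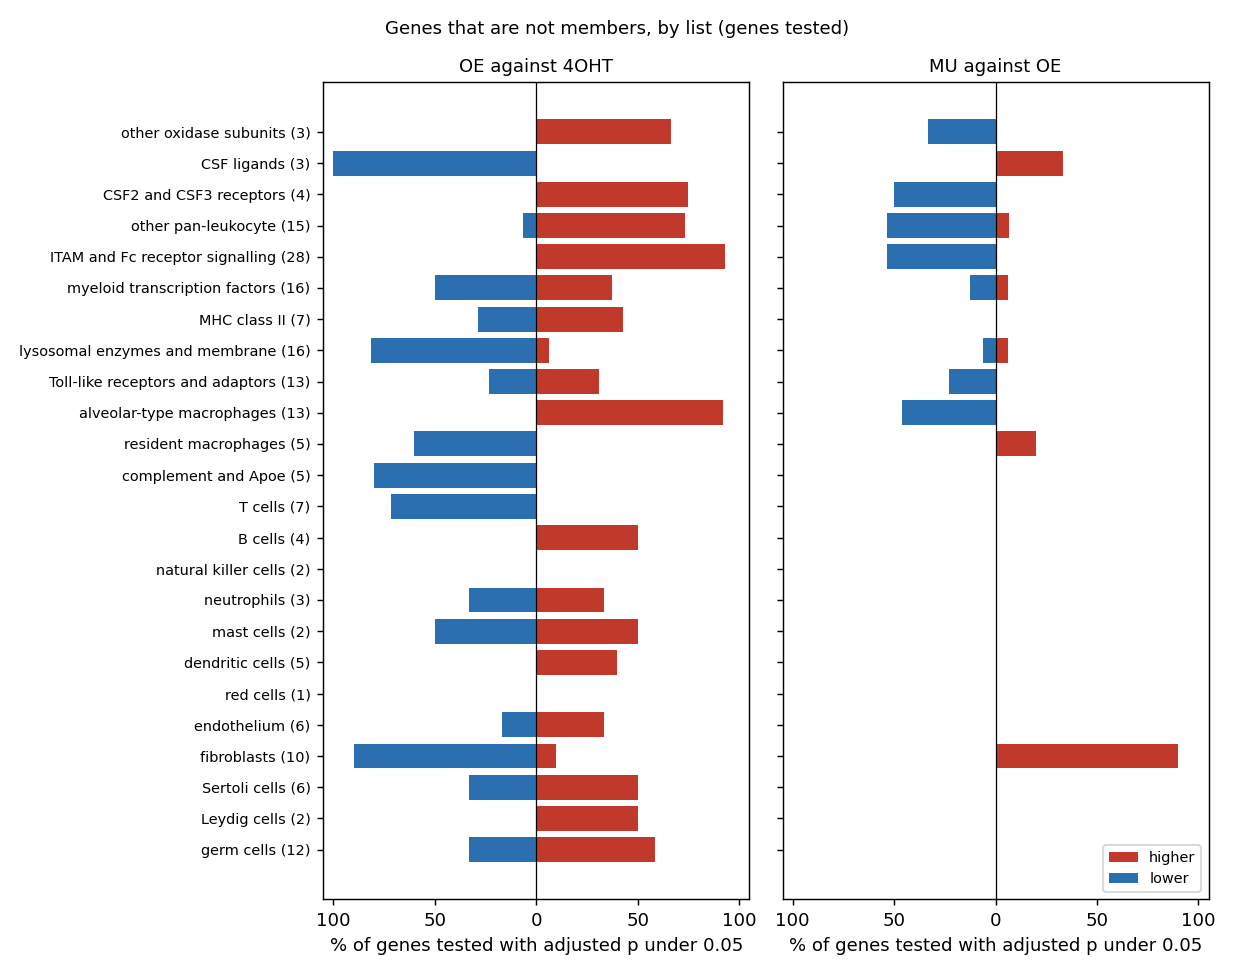
Share of the tested genes of each list (number tested in brackets) that passed the adjusted threshold of 0.05 of edgeR's quasi-likelihood test as higher (red, to the right) or lower (blue, to the left), for PRMT5 (WT) against 4OHT alone on the left panel and PRMT5 (E444Q) against PRMT5 (WT) on the right panel. On the left the lists of ITAM signalling and alveolar-type macrophages extend furthest to the right and the CSF ligands and fibroblast genes furthest to the left, and on the right the fibroblast genes are the longest bar. Over all genes tested, 29.9% were higher and 27.9% lower in the left comparison, and 2.12% and 1.06% in the right one.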

How the data were processed

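The data are RNA-seq of 9 SSC libraries. The table that the authors deposited holds raw counts for each gene as whole numbers. Per the labels and the submitters' processing notes, reads of 150 bases per end were handled with Trimmomatic 0.39, HISAT2 2.2.1, StringTie 2.2.1 and the build GRCm38. How whole numbers were made from StringTie output, the use of strand and the handling of reads with several alignments are not given in the sources used here. Groups were taken from the labels. The 38 genes and all other lists were chosen with earlier results of these data known.

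In R 4.3.3, edgeR 4.0.16 was run on the counts as deposited, after genes were filtered with filterByExpr by group, at a count of at least 10 and a total of at least 15, TMM normalization and a quasi-likelihood model of the group over all 9 libraries. P-values were two-sided and adjusted by the Benjamini-Hochberg method over 22452 genes, with a threshold of 0.05, and the common biological coefficient of variation was 0.155. The steps were tested on simulated data. CPM were scaled by TMM, and 12 counts, taken as 3 read pairs, corresponded to between 0.0317 and 0.158 CPM per library. Intervals were exact for Poisson counts of read pairs. All 38 genes are named, together with Prmt5, Ddx4, Dazl and, of each other list, up to 3 higher and 2 lower genes with the largest log2 fold change of PRMT5 (WT) against 4OHT alone among those past the threshold with at least 1 CPM in a group, or all genes of lists of 5 or fewer. Of these, the ones on which no result turned are given by counts. Evi2 and Lyz1 were named for the reads they could share, and Siglecf, Marco, Fabp4 and Fcgr4 are given for their levels only. Coordinates and exon lengths came from GENCODE vM21 and promoter sequences from RefSeq. Alternatives were other size factors, totals without TMM, no filter, DESeq2 1.42.0, fits of 2 groups only, counts divided by 4, the replicate number as a block, and leaving out each library. Some genes of these lists are not reported here by name.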

Additional observations from a re-analysis of the deposited data

How the results depend on the processing

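The number of genes past the threshold between PRMT5 (E444Q) and PRMT5 (WT), 712, was 1140 with DESeq2 and 1565 when only these 2 groups were fitted, and it ran from 400 to 1099 when 1 library was left out. It was 1099 without replicate 3 of 4OHT alone, 432, 400 and 411 without replicates 1, 2 and 3 of PRMT5 (E444Q), and 472 without replicate 3 of PRMT5 (WT), with fewer libraries in each fit. The share of all genes that stands beside the counts of the 38 genes in that comparison moves with these numbers. Over all alternatives, entries past the threshold were 33 to 34 for PRMT5 (WT) against 4OHT alone, 34 to 36 for PRMT5 (E444Q) against 4OHT alone and 21 to 28 between the constructs. The median log2 fold changes stayed between 3.62 and 3.78, between 2.65 and 2.86, and between -0.96 and -0.91, and the median ratio between 0.457 and 0.487. Scaling by totals alone moved the median of all genes to 0.11 and 0.16 in the comparisons with 4OHT alone. For single genes, no direction of a called value reversed, while under the alternatives a call of another named gene was lost in 137 cases and gained in 34.

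No pairing by replicate number was seen, since deviations of libraries with the same number correlated between -0.02 and 0.044 over 9 pairs. Libraries with different numbers correlated between -0.039 and 0.039 over 18 pairs. Whether libraries shared a culture or a batch cannot be told from these values. With the replicate block, 12806, 12443 and 674 genes passed the threshold in the 3 comparisons, and 33, 35 and 26 of the 39 entries.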
